A study of Arabidopsis with 4 samples.

Results

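The SAUR genes (SMALL AUXIN UP RNA genes) of Arabidopsis were compared between seedlings of the mutant jmj28-2 and of the wild type Col-0. Members were the genes of the deposited table whose name starts with SAUR or whose description contains SAUR, which gave 48 of 32833 genes. The mutant libraries (n = 2) came from jmj28-2, a line in the Col-0 ecotype that carries a mutant allele of JMJ28 (AT4G21430), which encodes a histone demethylase of the KDM3 type. The wild-type libraries (n = 2) came from Col-0, the standard laboratory accession. Seedlings of both genotypes were 12 days old, had grown at 23 °C in long days (16 h light, 8 h dark) on medium with 1% sucrose, and were extracted whole. The labels state neither the site of the mutation nor the number of seedlings per library. They also do not say whether replicates were grown separately, so p-values reflect only library-to-library spread, which may be technical.

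SAUR genes encode small, short-lived proteins, and many of their transcripts accumulate within minutes of auxin treatment. The best studied members bind and inhibit PP2C.D phosphatases, which otherwise remove the activating phosphate from plasma membrane proton pumps. Active pumps acidify the cell wall, and the cell expands. Expression of SAUR genes is also set by brassinosteroids, light, temperature and the growth-promoting PIF transcription factors. In seedlings the family is known for roles in hypocotyl elongation and cotyledon expansion.

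Levels are given as TPM, an abundance per transcript length scaled to a fixed total, which allows levels of different genes to be set side by side. The number of genes at 1 TPM or more ran from 19606 to 19751 over the libraries. Depth is unknown. JMJ28 itself had 5.45 and 5.72 TPM in jmj28-2 libraries, against 7.63 and 7.7 TPM in Col-0 libraries (limma adjusted p = 0.235). The labelled tissue was checked with fixed markers. The 20 root markers summed to 2324 and 1874 TPM in jmj28-2 and to 2206 and 2171 TPM in Col-0. Most of each sum was PYK10 alone, at 2077 and 1702 TPM in jmj28-2 and 1967 and 1923 TPM in Col-0. The sums thus say little about the other root markers. A lower mean in jmj28-2 was found for 15 of the 20 (75%). Among all 19764 genes with a mean of at least 1 TPM, 42.7% were lower. The median difference between jmj28-2 replicates 1 and 2 over the root markers was 0.33 log2 units, with replicate 2 lower, whereas it was -0.038 between the Col-0 replicates. The 8 green-tissue markers summed to between 67117 and 71705 TPM in jmj28-2 and to between 71738 and 73039 TPM in Col-0. Of these 8, 7 were lower (87.5%, beside the same 42.7%). Of the 4 shoot meristem markers, CLV3 was listed at 0 in all libraries and WUS in all but one. The other markers were detected. STM had 2.16 and 2.81 TPM in jmj28-2, against 2.69 and 1.98 TPM in Col-0. KNAT1 had 8.09 and 9.71 TPM in jmj28-2, against 9.76 and 9.84 TPM in Col-0, and was lower in both jmj28-2 libraries. In whole seedlings, fewer cells of a type and less RNA per cell cannot be told apart. The part that tissue make-up plays in the SAUR values below was not tested.

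SAUR transcripts were a small fraction of each library, and a few members held much of it. The 48 members summed to 377.5 and 333.5 TPM in jmj28-2, against 403.9 and 369.5 TPM in Col-0, so the summed levels overlapped between genotypes. The 3 members with the highest levels held 44.5% of the summed mean. SAUR6 (AT2G21210) was the highest at 90.1 and 71.7 TPM in jmj28-2, against 106.1 and 96.8 TPM in Col-0. SAUR78, of a small group linked to ethylene receptors, came next at 44.5 and 37.8 TPM in jmj28-2, against 41.3 and 35.9 TPM in Col-0. SAUR32, known from work on the apical hook, followed at 33.2 and 31.2 TPM in jmj28-2, against 35 and 37.6 TPM in Col-0. SAUR78 overlapped between genotypes, whereas SAUR6 and SAUR32 were lower in both jmj28-2 libraries. A further 6 members averaged 10 TPM or more, and the median tested member had 5.59 TPM, against 13.2 TPM for all tested genes.

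Differences were tested for the 36 members that averaged 1 TPM or more, and the remaining 12 were not tested. Among these 12, SAUR2, SAUR18, SAUR47 and SAUR75 were listed at 0 in all 4 libraries, and the other 8 had means between 0.035 and 0.845 TPM. The members just under the limit were SAUR77, at 1.34 and 0.6 TPM in jmj28-2 and 1.01 and 0.43 TPM in Col-0, and SAUR70, at 0.72 and 0.64 TPM in jmj28-2 and 0.3 and 0.48 TPM in Col-0. Just above it were SAUR61 and SAUR28, whose values are given with their groups. A total of 0 members was listed at 0 throughout one genotype and at 1 TPM or more throughout the other.

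No SAUR gene passed the test over all genes. With limma on log2(TPM + 1), adjusted over the 19764 genes tested, 0 of 36 members were called higher and 0 lower in jmj28-2, where 0.0405% and 0.0354% of all tested genes were called. The smallest adjusted p among members was 0.18, for SAUR21. At an unadjusted p under 0.05, 5 members (13.9%) were higher and 7 (19.4%) were lower in jmj28-2, beside 9.5% and 4.36% of all tested genes. A higher mean in jmj28-2 was found for 16 members (44.4%, beside 57.3% of all tested genes) and a lower mean for 20 members (55.6%, beside 42.7%). Higher genes thus outnumbered lower ones in the whole table as reported, but that lean depended on scaling and on a library. At an unadjusted p under 0.05, 1473 genes were higher and 1294 lower with median-ratio scaling, 1422 higher and 1364 lower with quantile normalization, and 1344 higher and 1565 lower without jmj28-2 replicate 1, against 1878 higher and 861 lower as reported. Under both scalings 4 members were higher and 9 lower, and the median over all tested genes was -0.00061 with median-ratio scaling and -0.0047 with quantile normalization. Both jmj28-2 libraries lay above both Col-0 libraries for 7 members (19.4%, beside 29% of all tested genes) and below both for 12 members (33.3%, beside 17.6%). The median log2 change was -0.084 over the tested members and 0.028 over all tested genes.

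Leaving out a library, which also leaves fewer samples, lowered these counts. The 7 lower members became 2 without Col-0 replicate 1, where 550 genes of the whole table were lower, and 2 without Col-0 replicate 2, where 356 were lower. The 5 higher members became 3 without Col-0 replicate 2, where 893 genes of the whole table were higher, and also 3 without jmj28-2 replicate 1 or without jmj28-2 replicate 2, where 1344 and 1759 were higher. The median log2 change of the members was -0.041 without jmj28-2 replicate 1, -0.026 without jmj28-2 replicate 2 and -0.056 without Col-0 replicate 1. Without Col-0 replicate 2 it stayed at -0.084. In 15 of 36 members the difference between the genotype means exceeded the differences between replicates within both genotypes. The same count was not made over all tested genes, so whether 15 is many or few is not known.

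**Figure D1:**
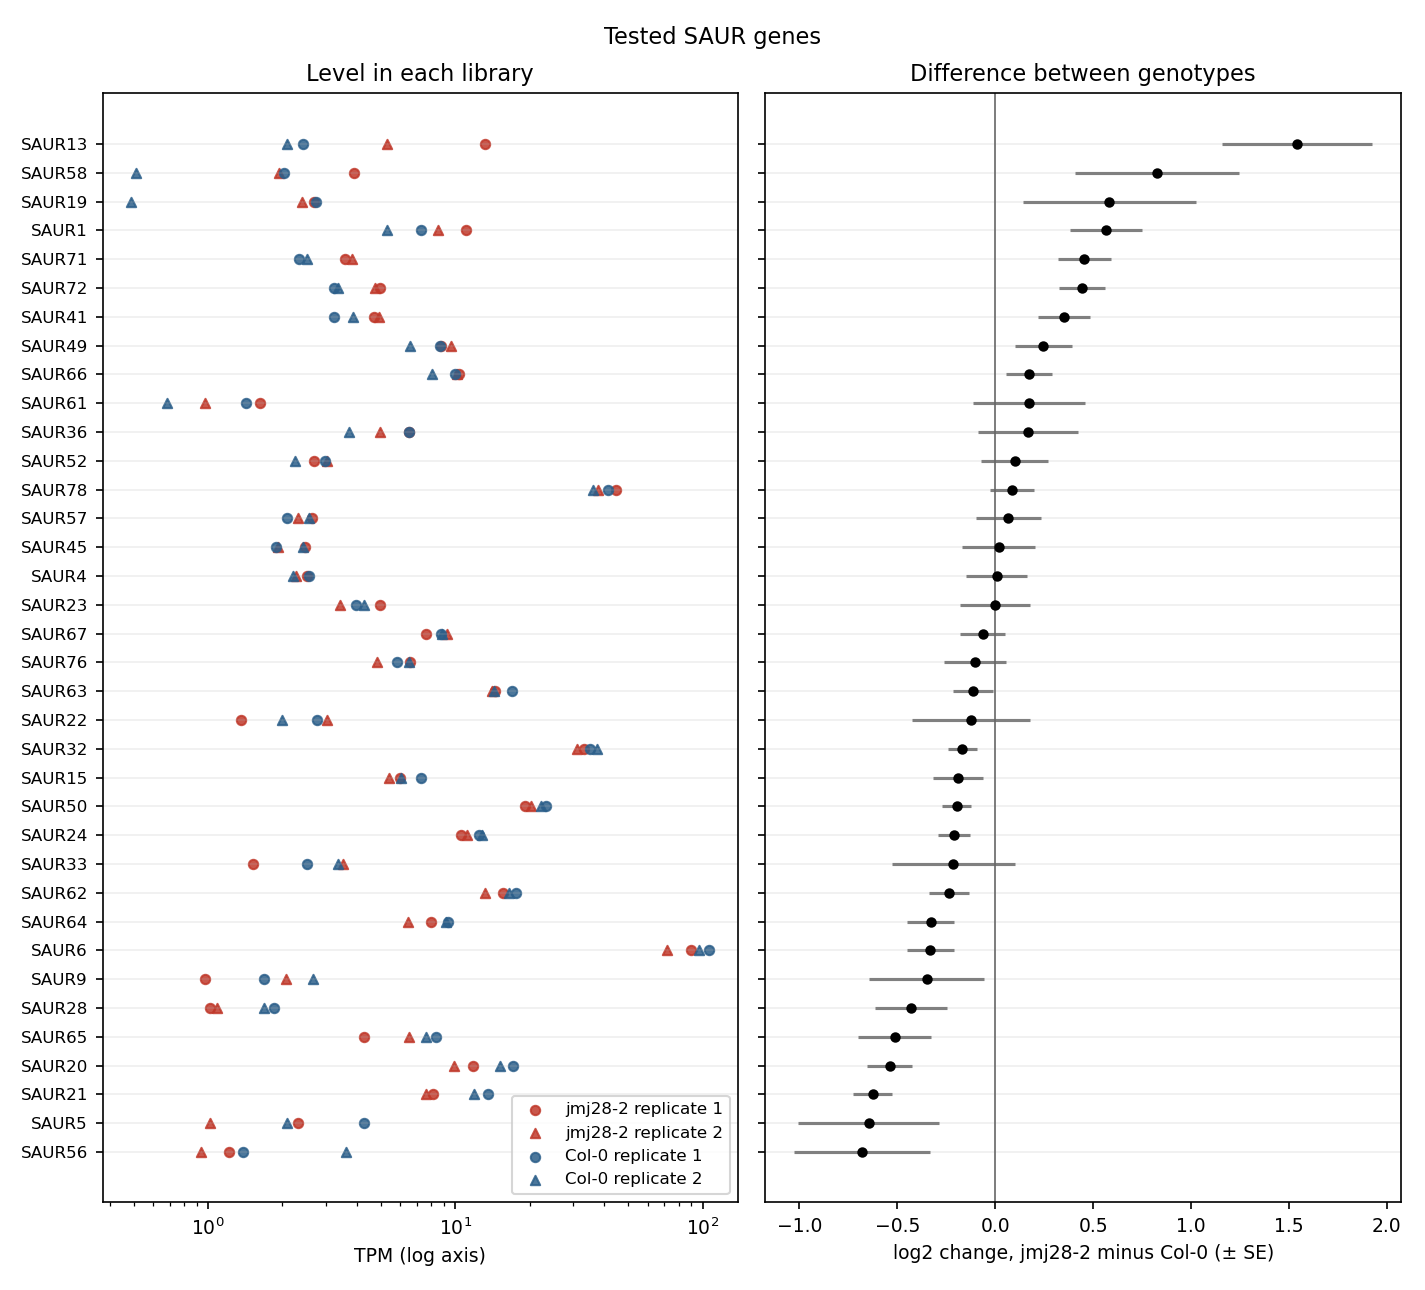
Levels (left, TPM on a log axis, 1 point per library) and log2 changes of jmj28-2 minus Col-0 with their SE from limma (right) of the 36 tested SAUR genes, ordered by log2 change. SAUR13 has the highest log2 change, 1.54, with its jmj28-2 replicates far apart at 13.2 and 5.31 TPM, and SAUR21 is lower in both jmj28-2 libraries.

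Lower means were found mostly among the abundant members, and the difference from scarce members was not tested. Of the 19 tested members with a mean of 5 TPM or more, 13 were lower (68.4%) and 6 higher (31.6%). Among all 15087 genes at that level, 40.8% were lower and 59.2% higher. The median log2 change was -0.17 for these members, beside 0.032 for all genes at that level. At an unadjusted p under 0.05, 7 of the 19 were lower (36.8%) and 2 higher (10.5%), whereas 4.46% of genes at that level were lower and 11% higher. These 7 are the same as the 7 lower members counted above. They include SAUR20, SAUR21 and SAUR24, and SAUR64 and SAUR65, from groups of related genes described below, so they are not independent observations. Of the 17 members between 1 and 5 TPM, 7 were lower (41.2%) and 10 higher (58.8%), with a median of 0.018. Among all tested genes at that level, 48.8% were lower and 51.2% higher, with a median of 0.0068. Among the 10 most abundant members, 8 had a lower mean in jmj28-2, with SAUR78 and SAUR66 as the exceptions. Replicates of one genotype also differed. Over the 19 abundant members the median difference of replicate 1 minus replicate 2 was 0.13 log2 units in jmj28-2 and 0.16 in Col-0.

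**Figure D2:**
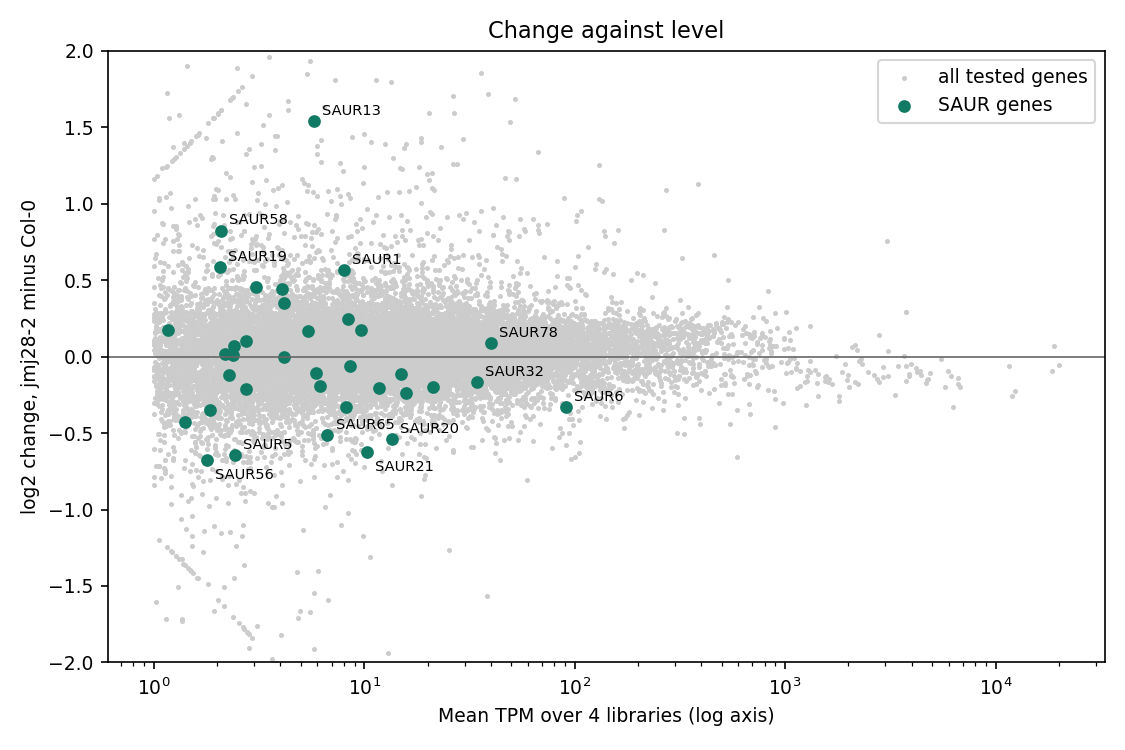
Log2 change of jmj28-2 minus Col-0 against the mean level over 4 libraries (log axis) for all tested genes (grey) and the 36 tested SAUR genes (green), with 76 genes beyond the plotted range of -2 to 2. Of the 19 SAUR genes at 5 TPM or more, 13 lie below 0, as do 40.8% of all tested genes at that level.

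The SAUR19 group (SAUR19 to SAUR24) lies close together on chromosome 5 and encodes nearly identical proteins, among them SAUR19, the member in which inhibition of PP2C.D phosphatases was first worked out. Reads of such copies are divided by estimation, so single members are uncertain and the summed level is given first. The 6 genes summed to 39.4 and 37.5 TPM in jmj28-2, against 52.6 and 46.7 TPM in Col-0, a ratio of 0.774. The summed levels did not overlap between genotypes. SAUR21 (AT5G18030) had 8.12 and 7.61 TPM in jmj28-2, against 13.5 and 11.9 TPM in Col-0. Its log2 change of -0.63 (SE 0.0999) had the smallest p of any member, 0.00133 before and 0.18 after adjustment with limma, and stayed between -0.71 and -0.54 when any one library was left out.

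SAUR20, separated from SAUR21 by 1 other gene in RefSeq order, had 11.8 and 9.88 TPM in jmj28-2, against 17.1 and 15.2 TPM in Col-0 (log2 change -0.54, limma adjusted p = 0.224). SAUR24 had 10.5 and 11.2 TPM in jmj28-2, against 12.5 and 12.9 TPM in Col-0 (-0.21, limma adjusted p = 0.36). These 3 genes, the most abundant of the 6, were lower in both jmj28-2 libraries (50%, beside 17.6% of all tested genes). As near copies that share reads, they are not separate observations. SAUR19 had 2.67 and 2.39 TPM in jmj28-2, against 2.72 and 0.49 TPM in Col-0. SAUR22 had 1.36 and 3.02 TPM in jmj28-2, against 2.76 and 1.99 TPM in Col-0. SAUR23 had 4.96 and 3.42 TPM in jmj28-2, against 3.98 and 4.29 TPM in Col-0. These 3 low members overlapped between genotypes, and the log2 change of SAUR19, 0.58, turned to -0.077 without Col-0 replicate 2.

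The SAUR63 group (SAUR61 to SAUR68 on chromosome 1, and SAUR75) includes SAUR63, which promotes elongation of hypocotyls and floral organs, and SAUR62, known from pollen tube growth. Its 9 genes summed to 62.3 and 60.8 TPM in jmj28-2, against 72.8 and 65.6 TPM in Col-0, a ratio of 0.889, with no overlap of the sums. Of the 7 tested, 5 were lower (71.4%, beside 42.7% of all tested genes) and 2 higher (28.6%, beside 57.3%). SAUR65 had 4.28 and 6.48 TPM in jmj28-2, against 8.38 and 7.58 TPM in Col-0 (log2 change -0.51, limma adjusted p = 0.336). SAUR64 had 7.95 and 6.44 TPM in jmj28-2, against 9.34 and 9.16 TPM in Col-0 (-0.33, limma adjusted p = 0.337). SAUR62 had 15.6 and 13.2 TPM in jmj28-2, against 17.7 and 16.5 TPM in Col-0 (-0.24, limma adjusted p = 0.393). All 3 were lower in both jmj28-2 libraries (42.9% of the 7 tested, beside 17.6% of all tested genes). Their sizes moved when a jmj28-2 library was left out. The log2 change of SAUR65 was -0.26 without jmj28-2 replicate 1. Without jmj28-2 replicate 2, those of SAUR64 and SAUR62 were -0.20 and -0.13.

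Those 3 genes belong to a run of 5 members, SAUR61 to SAUR65, where a run allows at most 1 other gene between members. The other two of the run overlapped between genotypes. SAUR63 had 14.5 and 14 TPM in jmj28-2, against 16.9 and 14.3 TPM in Col-0. SAUR61 had 1.62 and 0.97 TPM in jmj28-2, against 1.42 and 0.68 TPM in Col-0. In a second run nearby, SAUR66 had 10.3 and 10.2 TPM in jmj28-2, against 9.93 and 8.08 TPM in Col-0, and was higher in both jmj28-2 libraries (log2 change 0.17, limma adjusted p = 0.562), though its log2 change was 0.040 without Col-0 replicate 2. SAUR67 (AT1G29510, which RefSeq also lists under the symbol SAUR68) had 7.58 and 9.22 TPM in jmj28-2, against 8.76 and 8.82 TPM in Col-0. SAUR68 (AT1G29490 in the deposited table) had 0.46 and 0.29 TPM in jmj28-2, against 0.49 and 0.44 TPM in Col-0, and was not tested. Neighbouring members thus did not all lie on the same side.

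The SAUR41 group lay on the other side. It holds SAUR41, which promotes cell expansion when overexpressed, its close relatives SAUR71 and SAUR72, known from the vascular cylinder, and SAUR40. The 4 genes summed to 13.2 and 13.5 TPM in jmj28-2, against 8.82 and 9.88 TPM in Col-0, a ratio of 1.43. SAUR72 (AT3G12830) had 4.96 and 4.73 TPM in jmj28-2, against 3.24 and 3.36 TPM in Col-0 (log2 change 0.44, SE 0.118, limma adjusted p = 0.256). SAUR71 (AT1G56150) had 3.58 and 3.83 TPM in jmj28-2, against 2.34 and 2.52 TPM in Col-0 (0.46, limma adjusted p = 0.279). SAUR41 (AT1G16510) had 4.68 and 4.89 TPM in jmj28-2, against 3.24 and 3.85 TPM in Col-0 (0.35, limma adjusted p = 0.341). All 3 tested genes were higher in both jmj28-2 libraries, with unadjusted limma p of 0.0125, 0.0191 and 0.0419. Among all tested genes, 29% were higher in both and 9.5% were higher at an unadjusted p under 0.05. For each of the 3, the difference between genotype means exceeded the differences between replicates, a count not made over all tested genes. SAUR40 was listed at 0 in all libraries but Col-0 replicate 2, where it had 0.15 TPM. The log2 change of SAUR72 ran from 0.41 to 0.47 and that of SAUR71 from 0.42 to 0.49 when any one library was left out. That of SAUR41 moved more, from 0.25 to 0.45.

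**Figure D3:**
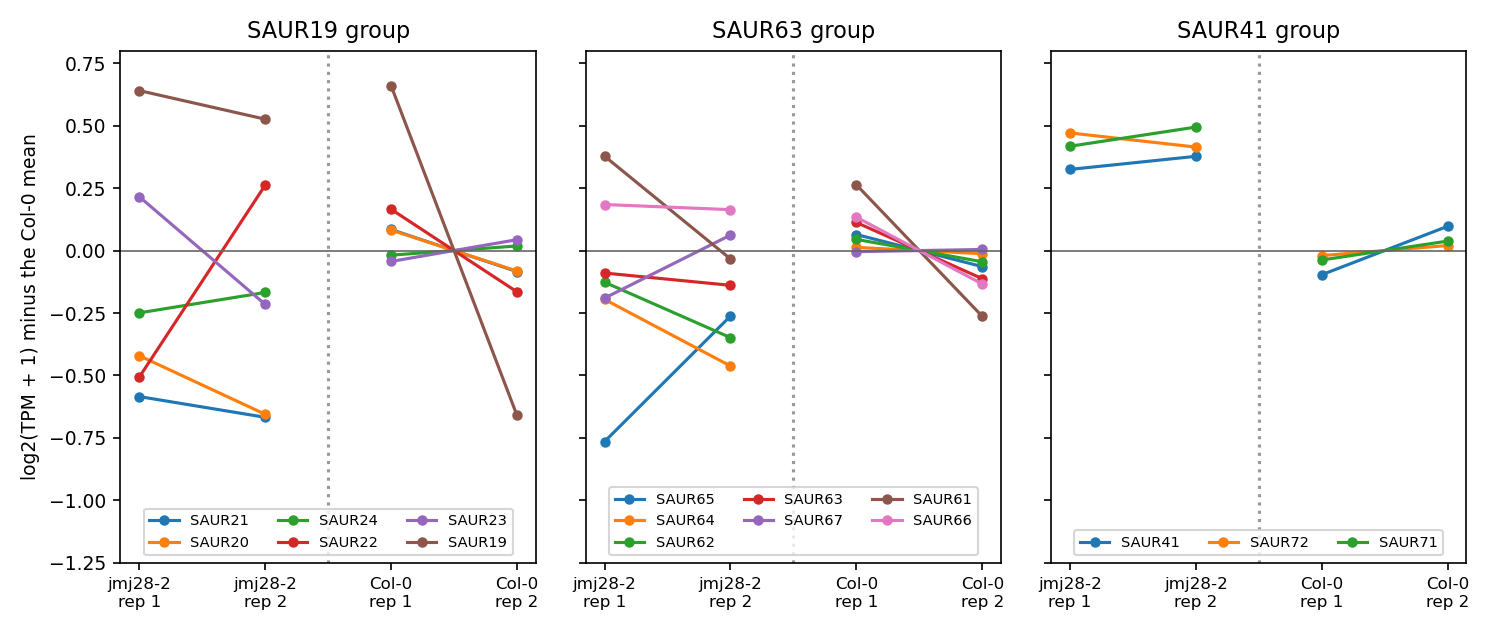
Level of each tested member of the SAUR19, SAUR63 and SAUR41 groups in each library, as log2(TPM + 1) minus the gene's Col-0 mean, with lines joining the replicates of a genotype. The 3 SAUR41-group genes lie above all their Col-0 values in both jmj28-2 libraries, and SAUR20, SAUR21 and SAUR24 lie below theirs. Among all tested genes, 29% lie above and 17.6% below in this way.

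SAUR50, known as a light-regulated gene of cotyledon opening and a target of PIF factors, had 19.1 and 20.3 TPM in jmj28-2, against 23.3 and 22.1 TPM in Col-0. It was lower in both jmj28-2 libraries (log2 change -0.20, unadjusted p = 0.0444, limma adjusted p = 0.345). The same held for the abundant SAUR6, whose values are given above (-0.33, unadjusted p = 0.0394, limma adjusted p = 0.337, and -0.17 without jmj28-2 replicate 2), and SAUR32 (-0.17, limma adjusted p = 0.393). SAUR28, of a group known for temperature-dependent growth, had 1.02 and 1.09 TPM in jmj28-2, against 1.85 and 1.69 TPM in Col-0 (-0.43, limma adjusted p = 0.389). In the SAUR76 group, which has been linked to ethylene receptors and growth, SAUR76 had 6.56 and 4.83 TPM in jmj28-2, against 5.79 and 6.5 TPM in Col-0. Neither SAUR76 nor SAUR78 was separated by genotype.

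A pair of members is known from leaf senescence. SAUR36, also called SAG201, had 6.52 and 4.96 TPM in jmj28-2, against 6.51 and 3.73 TPM in Col-0, and overlapped. SAUR49 had 8.74 and 9.59 TPM in jmj28-2, against 8.68 and 6.57 TPM in Col-0 (log2 change 0.25, limma adjusted p = 0.515). Without Col-0 replicate 2 its log2 change was 0.069.

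The highest log2 change of any member was that of SAUR13 (AT4G38825), which had 13.2 and 5.31 TPM in jmj28-2, against 2.43 and 2.08 TPM in Col-0. The means were 9.25 ± 5.57 TPM in jmj28-2 and 2.26 ± 0.247 TPM in Col-0 (SD, n = 2 each), a ratio of 4.1 (log2 change 1.54, SE 0.383, unadjusted p = 0.00932, limma adjusted p = 0.239). Both jmj28-2 libraries were above both Col-0 libraries, but the size rested on jmj28-2 replicate 1, without which the log2 change was 0.96. SAUR1 had 11 and 8.49 TPM in jmj28-2, against 7.29 and 5.27 TPM in Col-0 (log2 change 0.57, limma adjusted p = 0.303), and was also higher in both. It lies in a run with SAUR2, SAUR4 and SAUR5. SAUR5 had 2.31 and 1.02 TPM in jmj28-2, against 4.29 and 2.09 TPM in Col-0 (-0.64, limma adjusted p = 0.494). In both genotypes SAUR5 was higher in replicate 1, its values overlapped, and its log2 change ran from -1.03 to -0.26 when one library was left out. That of SAUR1 ran from 0.36 to 0.77.

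SAUR58 had 3.88 and 1.94 TPM in jmj28-2, against 2.03 and 0.51 TPM in Col-0 (log2 change 0.82, limma adjusted p = 0.455), with overlap. Its log2 change was 0.32 without Col-0 replicate 2 and 1.33 without Col-0 replicate 1. SAUR56, linked to stomatal opening, had 1.22 and 0.94 TPM in jmj28-2, against 1.39 and 3.62 TPM in Col-0 (-0.68, limma adjusted p = 0.456). Its lower mean rested on Col-0 replicate 2, without which the log2 change was -0.20. The 14 members not named by the rule summed to 19.2 and 21.5 TPM in jmj28-2 and to 22.3 and 22 TPM in Col-0. Of the 7 of them that were tested, log2 changes ran from -0.35 to 0.10 and the smallest limma adjusted p was 0.558.

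The deposited table does not use the word SAUR for every gene of the family. RefSeq gives SAUR names to 31 further genes of the table, and these were looked at after the values of the 48 members were seen. Of the 21 tested, 10 were higher (47.6%, beside 57.3% of all tested genes) and 11 lower (52.4%, beside 42.7%). The median log2 change was -0.052, and 0 were called. At an unadjusted p under 0.05 with limma, 1 was higher (4.76%, beside 9.5% of all tested genes) and 4 were lower (19%, beside 4.36%). The higher gene was SAUR12 (log2 change 0.67, mean 1.02 TPM). The lower genes were SAUR55 (-0.41), SAUR31 (-0.33), SAUR16 and SAUR14. SAUR16 had 44.5 and 35.1 TPM in jmj28-2, against 60.8 and 54.5 TPM in Col-0 (log2 change -0.53, limma adjusted p = 0.235). SAUR14 had 35.3 and 40.5 TPM in jmj28-2, against 51.7 and 46.5 TPM in Col-0 (-0.37, limma adjusted p = 0.248). Together with SAUR50 these form the light-response group, which summed to 98.8 and 95.9 TPM in jmj28-2, against 135.8 and 123.2 TPM in Col-0, a ratio of 0.752. All 3 genes were lower in both jmj28-2 libraries, beside 17.6% of all tested genes.

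The 4 further genes of the temperature group were mixed. SAUR26 had 3.76 and 3.53 TPM in jmj28-2, against 3.2 and 2.29 TPM in Col-0. SAUR27 had 2.01 and 2.63 TPM in jmj28-2, against 2.65 and 3.75 TPM in Col-0. SAUR29 had 2.73 and 3.77 TPM in jmj28-2, against 4.18 and 3.76 TPM in Col-0, and SAUR25 was listed at 0 in 3 libraries. SAUR26 was thus higher and SAUR27 lower in both jmj28-2 libraries, and neither passed (limma adjusted p = 0.474 and 0.524).

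No gene of the lists that act above SAUR transcripts passed the test over all genes. For the direction counts that follow, 57.3% of all tested genes were higher and 42.7% lower. Of the 3 auxin synthesis genes, 2 were lower and 1 higher. Of the 6 auxin receptor genes (TIR1 and AFB1 to AFB5), 2 were lower and 4 higher. In both lists 0 genes reached an unadjusted p under 0.05, and receptor log2 changes ran from -0.057 to 0.084. TIR1, the founding receptor, had 35.5 and 38.8 TPM in jmj28-2, against 37.2 and 38.2 TPM in Col-0. Among 12 growth transcription factors, 7 were lower and 5 higher, with a median of -0.017 and 0 called by limma over all genes. PIF7, a bHLH factor of shade-induced growth, had 23.5 and 22.8 TPM in jmj28-2, against 29.2 and 28.4 TPM in Col-0 (log2 change -0.31, unadjusted p = 0.00515, limma adjusted p = 0.224).

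Other PIF factors lay on both sides. PIF5 had 95.3 and 96.3 TPM in jmj28-2, against 79.3 and 87.5 TPM in Col-0 (log2 change 0.20, limma adjusted p = 0.314). PIF3 had 12.7 and 11.9 TPM in jmj28-2, against 9.72 and 10.6 TPM in Col-0 (0.26, limma adjusted p = 0.319). PIF4, the factor of warmth-induced growth, had 63 and 68.1 TPM in jmj28-2, against 71.3 and 78.9 TPM in Col-0 (-0.19, limma adjusted p = 0.369). PIF3 and PIF5 were thus higher, and PIF4 and PIF7 lower, in both jmj28-2 libraries. Of the 12 growth transcription factors, 3 were higher in both (25%, beside 29% of all tested genes). A further 5 were lower in both (41.7%, beside 17.6%). BES1, a brassinosteroid factor, had 104 and 101.5 TPM in jmj28-2, against 104 and 101.8 TPM in Col-0.

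Of the GH3 genes, early auxin targets whose enzymes conjugate auxin, 5 of 6 were tested. Of these, 3 were higher (60%, beside 57.3% of all tested genes). GH3.3 had 5.97 and 9.73 TPM in jmj28-2, against 5.04 and 3.75 TPM in Col-0 (log2 change 0.69, unadjusted p = 0.0344, limma adjusted p = 0.325). GH3.6 had 32.2 and 30.2 TPM in jmj28-2, against 30.1 and 32.1 TPM in Col-0, and overlapped.

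Transcripts of PP2C.D phosphatases, on which SAUR proteins act, and of the proton pumps below them were looked at as well. Protein activity was not measured. Of the 9 PP2C.D phosphatase genes, 7 were higher (77.8%, beside 57.3% of all tested genes) and 2 lower (22.2%, beside 42.7%) in jmj28-2. Their median log2 change was 0.039, beside 0.028 for all tested genes, and 0 were called. AT4G33920 had 23.7 and 24.4 TPM in jmj28-2, against 15.8 and 15.8 TPM in Col-0, a ratio of 1.52 (log2 change 0.58, SE 0.0682, unadjusted p = 0.000317, limma adjusted p = 0.13). AT3G17090 had 36.2 and 35.6 TPM in jmj28-2, against 31.6 and 31 TPM in Col-0 (0.19, limma adjusted p = 0.293). AT3G51370, the most abundant, had 61.6 and 59.2 TPM in jmj28-2, against 55.7 and 62.2 TPM in Col-0. The first 2 were higher in both jmj28-2 libraries and the third overlapped. Of all 9, 4 were higher in both (44.4%, beside 29% of all tested genes). Of the 11 plasma membrane proton pump genes, 8 were tested, 5 lower (62.5%) and 3 higher (37.5%), and 0 reached an unadjusted p under 0.05. AHA2, the main pump of roots, had 297.2 and 267.6 TPM in jmj28-2, against 290.7 and 287.7 TPM in Col-0. AHA1, abundant throughout the plant, had 235.2 and 222.4 TPM in jmj28-2, against 212.1 and 219.9 TPM in Col-0 (0.082, limma adjusted p = 0.578).

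**Figure D4:**
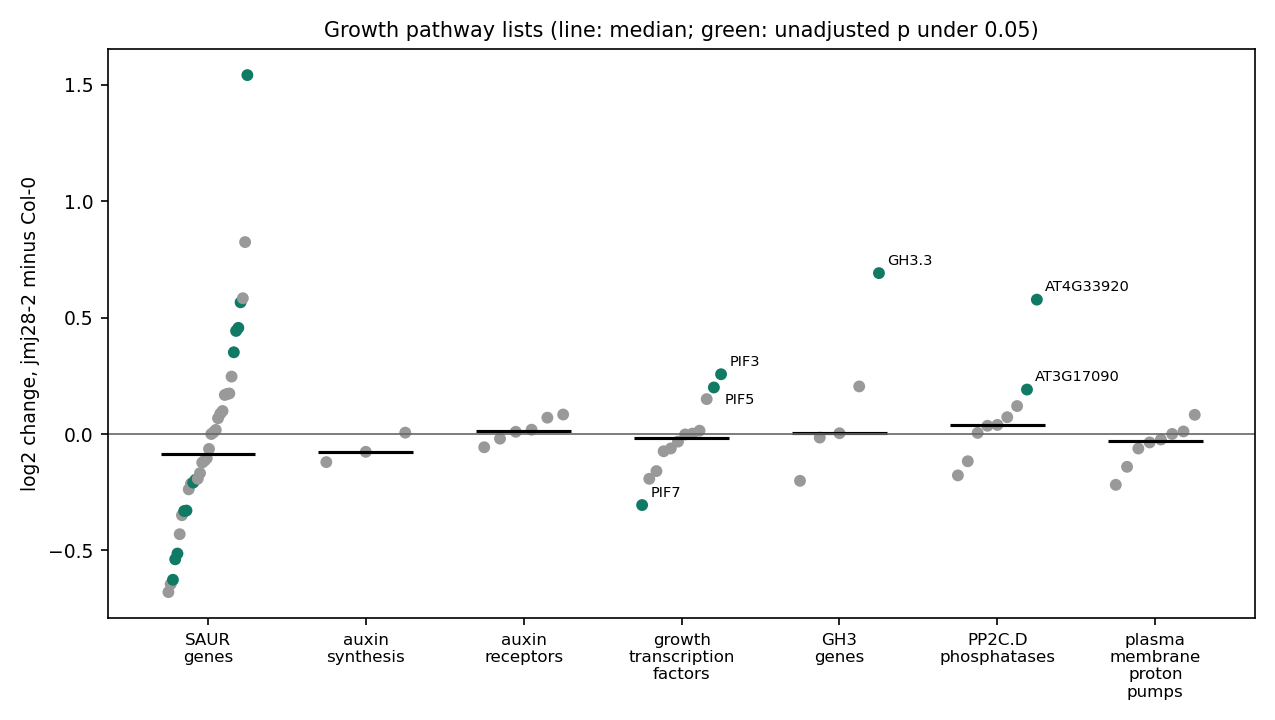
Log2 change of jmj28-2 minus Col-0 for the 36 tested SAUR genes and the tested genes of 6 other lists of the growth pathway, 1 point per gene, with a line at each list's median and green for an unadjusted p under 0.05. SAUR genes span -0.68 to 1.54, GH3 genes -0.20 to 0.69, PP2C.D genes -0.18 to 0.58 and the 6 auxin receptor genes -0.057 to 0.084. The lists differ in size and level, so their spans are not like for like. At the ends of the SAUR span, SAUR56 and SAUR13 each had replicates of a genotype far apart.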

How the data were processed

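The authors deposited 1 table of values per gene for 4 libraries, with 0 value columns left unmatched to a library. It is labelled FPKM, but its columns sum to between 998943 and 999014, and the values the authors deposited are therefore handled here as TPM (the planned test, written for FPKM, serves both). TopHat, RSEM and edgeR with build TAIR10 are named per the submitters' processing notes. Tool versions, filters and strand handling are not stated there. Depth cannot be read from TPM, so no counting interval is given, and an exact 0 can be a failed estimate.

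All 19764 genes with a mean of at least 1 TPM were fitted as log2(TPM + 1) in limma 3.58.1 under R 4.3.3, on genotype alone with an intensity trend. Residual degrees of freedom were 2 and prior ones 3.18. Two-sided p-values were adjusted by Benjamini-Hochberg over the whole tested table, and calls needed an adjusted p under 0.05. Log2 changes understate those of low genes. The smallest two-sided p of a permutation of 2 libraries against 2 is 0.333.

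Members and lists were chosen with earlier results of these data known. Members named one by one were those called, up to 12 per direction with the smallest p, the 10 most abundant, those at 0 in one genotype, those nearest the limit of 1 TPM, and all members of 7 numbered groups. Pathway genes were named at an unadjusted p under 0.05 or for abundance, with TIR1, GH3.6, BES1 and PIF4 among the latter. Names of 22 members came from RefSeq (assembly TAIR10.1), which also gave the gene order. Promoter motifs were planned but not analysed here. Figures were drawn with matplotlib 3.10.9.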

Additional observations from a re-analysis of the deposited data

How the results depend on the processing

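Under the 13 alternatives, all planned, 0 of the tested members were called in either direction. At an unadjusted p under 0.05, the count of higher members was 2 under a 5 TPM filter, and 3 to 4 when one library was left out, against 5 as reported. The count of lower members was 2 to 5 when one library was left out, against 7 as reported. The median log2 change of the members was -0.17 under the 5 TPM filter, which leaves fewer genes, and -0.084 to -0.026 when one library was left out. Without a filter, 44 members were tested. Among the 29 tested members named one by one, log2 changes turned sign for 8, each time only when a library was left out. They ran from -0.077 to 1.24 for SAUR19, from -0.51 to 0.26 for SAUR22, from -0.22 to 0.22 for SAUR23, from -0.17 to 0.50 for SAUR36, from -0.091 to 0.44 for SAUR61, from -0.19 to 0.062 for SAUR67, from -0.29 to 0.083 for SAUR76 and from -0.028 to 0.20 for SAUR78. The cause was not tested.

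Replicate numbers are shared by the genotypes, but the differences between replicates 1 and 2 were barely correlated across genes. Pearson's r was 0.0162 over 19764 genes, which are not independent, so the numbers were not taken as pairs. Of the 36 tested members, 24 in jmj28-2 and 23 in Col-0 were higher in replicate 1, beside 12423 and 9547 of all tested genes. Whether the members share a replicate effect was not tested. With a replicate block the counts were 5 higher and 7 lower, as without it. The median of -0.084 could not change, because in this balanced layout a block leaves each log2 change as it was.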
